A study of Mus musculus with 165 samples.

Results

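The adult hemoglobin genes and 1 heme synthesis gene that mark red blood cells, Hba-a1, Hba-a2, Hbb-bs, Hbb-bt and Alas2, were followed across the brains and livers of ageing mice. They were chosen by symbol, as the adult alpha and beta globin genes and the red cell form of the first enzyme of heme synthesis. All 5 were found among the 55471 gene identifiers of both count tables. All 5 also passed the filter on low counts, which kept 18711 genes in the brain and 15579 in the liver. Polyadenylated RNA had been sequenced as bulk tissue from male C57BL/6J/Ukj mice, an inbred laboratory strain, aged 3, 9, 15, 24 or 28 months. The labels name no treatment or transgene in any group. They do not say whether replicates of an age shared litters or cages, so p-values measure the spread between these animals only. For the brain there were 15, 16, 16, 17 and 18 libraries from youngest to oldest. For the liver there were 16, 16, 16, 17 and 18. By the mouse numbers in the labels, 82 of 83 mice gave both tissues and 1 gave liver only, and the libraries had been made in 3 labelled preps, each of which held all 5 ages.

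Hemoglobin is built from alpha and beta globin chains that each carry a heme group. In the mouse, Hba-a1 and Hba-a2 are neighbouring genes for the adult alpha chain, and Hbb-bs and Hbb-bt are the adult beta genes of the haplotype found in C57BL strains. Alas2 makes 5-aminolevulinate synthase in developing red cells, while its relative Alas1 serves the other cells of the body, hepatocytes above all. Young red cells still carry globin mRNA after losing the nucleus, so globin transcripts reach any tissue that contains blood. Whether the vessels were flushed before dissection is not given in the sources used here.

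Hba-a1 (ENSMUSG00000069919) lies on chr11:32283511-32284465 and Hba-a2 (ENSMUSG00000069917) on chr11:32296489-32297298, both on the plus strand of GRCm38 in the GENCODE M21 annotation. Hbb-bs (ENSMUSG00000052305) lies on chr7:103826534-103828096 and Hbb-bt (ENSMUSG00000073940) on chr7:103812524-103813996, both on the minus strand. Alas2 (ENSMUSG00000025270) lies on chrX:150547375-150570638 on the plus strand, and its exons overlap those of Apex2 and Mir3620 on the opposite strand. Values in this series are reads over exons, and the exons of these genes sum to 0.812, 0.667, 0.768, 0.703 and 2.403 kb for Hba-a1, Hba-a2, Hbb-bs, Hbb-bt and Alas2. Of all 100-base stretches in its transcripts, Hba-a1 shared 63.3% with Hba-a2, and Hba-a2 shared 79.5% with Hba-a1. The figure was 49.7% for Hbb-bs and 54.8% for Hbb-bt, each shared with the other, while Alas2 shared none with another gene. How reads common to 2 genes were counted is not given in the sources used here, so the split within each globin pair is uncertain and the sum of a pair is the safer quantity.

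The stretch before the start of transcription is shown for 1 alpha gene, 1 beta gene and Alas2, because Alas2 parted from the globins in the liver results. Sequences are from RefSeq on GRCm38.p6, whose starts differ from those of the annotation above, and each covers the 250 bases before the RefSeq start. They lie on chr11:32283422-32283671 (plus strand) for Hba-a1, chr7:103827929-103828178 (minus strand) for Hbb-bs and chrX:150547167-150547416 (plus strand) for Alas2. Capitals mark every match, on either strand, to 4 short motifs. GATAA is the core bound by GATA factors. CACCC is a core bound by Klf1 and related factors. The CCAAT box is known from many promoters. ATATAA is a form of the TATA box.
Hba-a1: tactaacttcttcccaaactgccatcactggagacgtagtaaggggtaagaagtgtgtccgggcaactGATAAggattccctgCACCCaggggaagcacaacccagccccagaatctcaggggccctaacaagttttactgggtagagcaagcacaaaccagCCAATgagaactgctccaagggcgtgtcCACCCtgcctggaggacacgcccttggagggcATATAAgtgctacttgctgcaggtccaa
Hbb-bs: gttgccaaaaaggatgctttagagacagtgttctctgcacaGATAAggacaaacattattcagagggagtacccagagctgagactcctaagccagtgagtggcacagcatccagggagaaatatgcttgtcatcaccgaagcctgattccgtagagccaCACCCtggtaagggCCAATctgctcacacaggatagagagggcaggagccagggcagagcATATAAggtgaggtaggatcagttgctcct
Alas2: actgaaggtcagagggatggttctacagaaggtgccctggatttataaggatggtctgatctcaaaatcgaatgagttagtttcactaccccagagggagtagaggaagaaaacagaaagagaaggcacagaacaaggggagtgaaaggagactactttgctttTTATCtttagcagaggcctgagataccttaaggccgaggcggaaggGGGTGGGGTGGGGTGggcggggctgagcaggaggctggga

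The Hba-a1 and Hbb-bs sequences held all 4 motifs on the coding strand, with ATATAA 28 to 23 bases before the start in Hba-a1 and 30 to 25 bases before it in Hbb-bs. Hba-a2 matched Hba-a1 at all 247 bases compared after a shift of 3 bases. Hbb-bt also held all 4 motifs. With a shift of 1 base and no gaps allowed, it differed from Hbb-bs at 122 of 249 bases. Bases beyond any inserted or lost base fall out of line in such a count, so it does not measure the likeness of the pair. ATATAA lay 30 to 25 bases before the start in Hbb-bs and 29 to 24 in Hbb-bt, while GATAA lay 209 to 205 and 204 to 200 bases before it. The Alas2 sequence held 1 GATAA and 3 CACCC matches, all on the opposite strand, and no CCAAT or ATATAA match. No 2 matches shared a base in any of the 5 genes. Among 32851 mouse promoters of the same length, GATAA occurred in 22.6%, CACCC in 52.0%, CCAAT in 33.8% and ATATAA in 9.1%. A match is a description of the letters and not evidence of binding.

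Together the 5 genes took a small share of each library. In the brain they held between 0.00294% and 0.0551% of all counts, with a median of 0.0102%, and in the liver between 0.00518% and 0.0546%, with a median of 0.0239%. Brain libraries held 11.5 to 73.4 M counts and liver libraries 5.82 to 57.5 M. The lowest count of a member in any library was 28 for the brain and 81 for the liver, so none was near the limit of detection. Brain replicate 15 of 28 months stood apart from the rest: its median correlation of log2 levels with the other 28-month brains was 0.856, the lowest of all 82, and its depth was also the lowest. Brain changes of the members and counts of the lists are given with and without it. Brain replicate 13 of 24 months had the next lowest such correlation, 0.9415, and liver replicate 13 of 24 months the lowest of the livers, 0.9321. The 24-month changes are also given without these 2 libraries. No 2 libraries of an age held identical values, with correlations of log2 levels of at most 0.9945 in the brain and 0.9922 in the liver.

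Hbb-bs, the main adult beta globin gene here, was the most abundant of the globins in both tissues. Levels are given as counts per 1000000 counts of the library (CPM), with library sizes scaled by TMM factors, and per kilobase of exon where genes are compared. At 3 months in the brain, the level was 60.8 ± 35.5 CPM per kb for Hbb-bs (SD, n = 15) and 23.3 ± 13.9 for Hba-a1. It was 14.0 ± 9.52 for Hba-a2, 10.2 ± 5.94 for Hbb-bt and 1.01 ± 0.592 for Alas2. Within single libraries, Hbb-bs was above Hba-a1, Hba-a1 above Hba-a2 and Hbb-bt above Alas2 in 15 of 15, and Hba-a2 was above Hbb-bt in 12 of 15. At 3 months in the liver, Hbb-bs was at 92.6 ± 22.5 CPM per kb (SD, n = 16) and Hba-a1 at 36.5 ± 7.58. Alas2 reached 39.2 ± 10.8 there, against 15.3 ± 5.91 for Hba-a2 and 14.9 ± 3.77 for Hbb-bt. There Hbb-bs was above Alas2 and Hba-a1 above Hba-a2 in 16 of 16 libraries, while Alas2 was above Hba-a1 in 8 of 16 and Hba-a2 above Hbb-bt in 7 of 16, so these 2 pairs of neighbours had no fixed order. Alas2 was thus the lowest of the 5 by mean level in the brain and close to Hba-a1 in the liver.

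In the brain, Hba-a1, Hbb-bs and Alas2 were higher at 28 than at 3 months, by 2.29, 2.09 and 1.86 fold, with wide overlap between ages. Hba-a2 and Hbb-bt had estimates of 2.08 and 1.64 fold that did not pass the test. Hbb-bs, the largest of them, ran from 16.7 CPM to 127 CPM at 3 months with a median of 42.1. At 9 months it ran from 32.3 to 147 with a median of 61.3, and at 15 months from 31.2 to 187 with a median of 53.4. At 24 months the range was 19.7 to 240 with a median of 62.8, and at 28 months 19.0 to 328 with a median of 74.8. The medians of all later ages lay above that of 3 months, but the lowest libraries at 24 and 28 months lay close to the lowest of 3 months, and the ages overlapped throughout. In bulk tissue, a change in the number of red cells and a change in globin RNA per cell cannot be told apart.

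Between 28 and 3 months in the brain, Hbb-bs rose by a log2 fold change of 1.07 ± 0.31 (SE, edgeR quasi-likelihood test, Benjamini-Hochberg adjusted p = 0.00675). Hba-a1 rose by 1.19 ± 0.34 (edgeR adjusted p = 0.00473) and Alas2 by 0.90 ± 0.30 (edgeR adjusted p = 0.0183). Hba-a2, at 1.06 ± 0.42, and Hbb-bt, at 0.71 ± 0.30, did not pass, with edgeR adjusted p of 0.0516 and 0.0608. Thus 3 of 5 members were called, against 28.3% of all genes tested in that comparison. Hba-a1 ran from 7.06 to 52.9 CPM at 3 months, with a median of 16.6, and from 8.23 to 239 CPM at 28 months, with a median of 29.8. Alas2 ran from 0.973 to 7.05 CPM with a median of 2.17, and from 1.04 to 10.6 CPM with a median of 3.76. Both genes overlapped between the ages over most of their range. The median change of all genes tested was 0.01 in each tissue, so the scaling left the middle of all genes close to 0.

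At 24 months, 4 members were higher than at 3 months in the brain. Hba-a1, Hbb-bs, Hbb-bt and Alas2 rose against 3 months by 0.97 ± 0.33, 1.02 ± 0.31, 1.01 ± 0.30 and 1.04 ± 0.30 on the log2 scale, with edgeR adjusted p of 0.0484, 0.0237, 0.0179 and 0.0163. Hba-a2 was at 0.83 ± 0.42 (edgeR adjusted p = 0.217). These 4 of 5 members compare with 10.1% of all genes. The Hba-a1 call was near the threshold and was lost with RLE scaling (edgeR adjusted p = 0.0505), without the filter (0.0763) and with the alpha pair summed (0.92, adjusted p = 0.0833). The Hba-a1 and Hbb-bs calls also rested on 1 library: leaving out brain replicate 13 of 24 months, Hba-a1 was at 0.79 ± 0.33 and Hbb-bs at 0.87 ± 0.31 (edgeR adjusted p of 0.125 and 0.0619, not called), and Hba-a2 at 0.61. Hbb-bt, at 0.92 ± 0.30, and Alas2, at 1.02 ± 0.31, kept their calls (edgeR adjusted p of 0.037 and 0.022). That library held 109 CPM of Hba-a1 and 239 CPM of Hbb-bs. No member was called at 9 or 15 against 3 months, where 0.315% and 0.871% of all genes were, though 3 and 1 of them had an unadjusted p under 0.05 in edgeR. None was called between neighbouring ages either: at 15 against 9, 24 against 15 and 28 against 24 months the background was 0%, 0.732% and 1.09% of genes, and no member had an unadjusted p under 0.05. With the 4 age terms tested together, Hba-a1 (edgeR adjusted p = 0.0359) and Hbb-bs (0.0420) were called, against 20.6% of genes, and without replicate 15 of 28 months 1 of 5, Hbb-bs, was called. DESeq2 likewise called no member in the 5 comparisons in which edgeR called none.

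**Figure D1:**
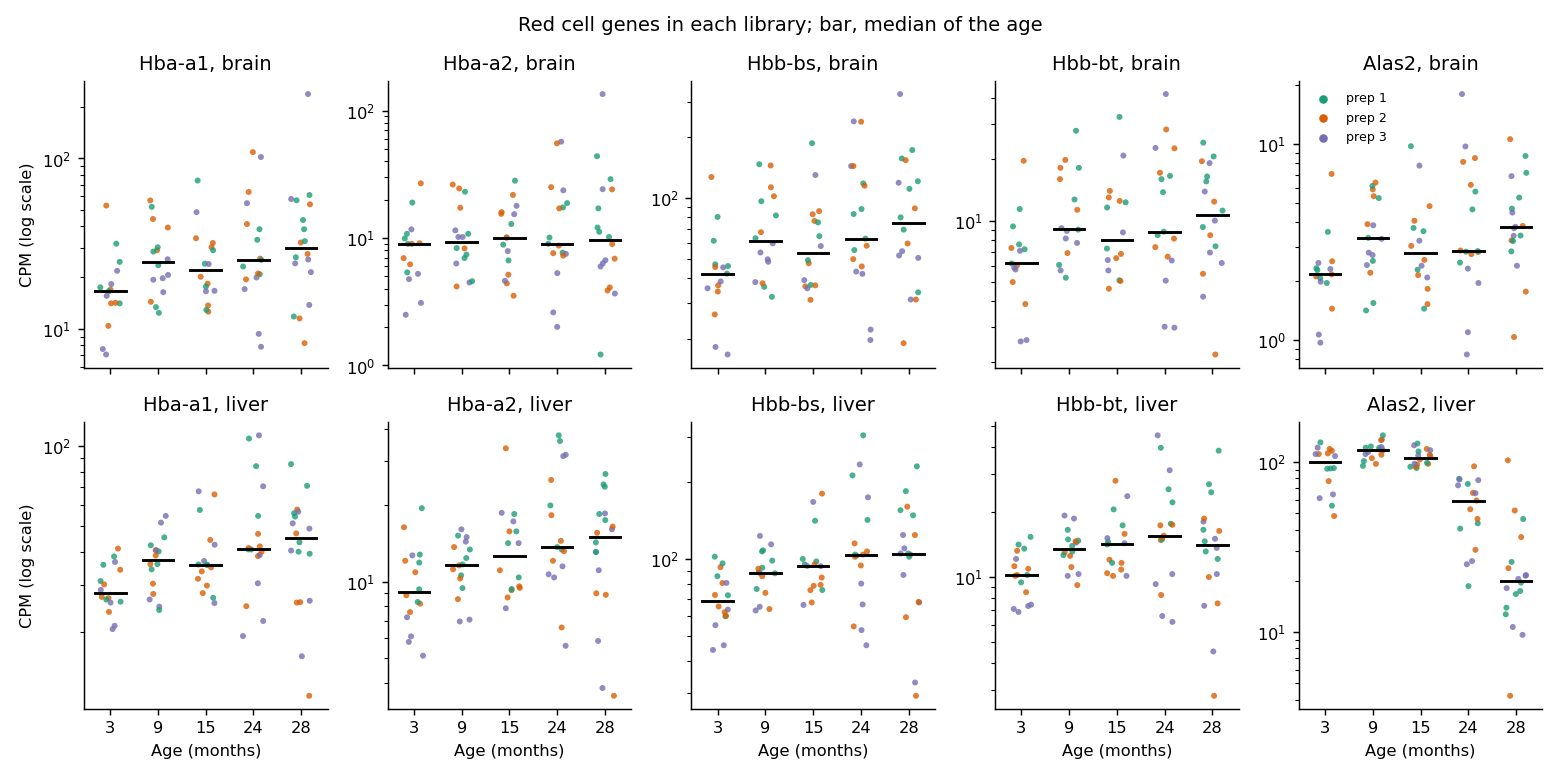
Level of each gene in each library (CPM, log scale) by age in months, brain above and liver below. Points are libraries coloured by prep and black bars are medians. Globins overlap between all ages in both tissues, while liver Alas2 falls from a median of 106 CPM at 15 months to 20 CPM at 28 months.

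The size of the brain rise moved with the libraries taken. Without replicate 15 of 28 months, the changes from 3 to 28 months were 0.77 for Hba-a1, 0.49 for Hba-a2, 0.81 for Hbb-bs, 0.64 for Hbb-bt and 0.89 for Alas2 on the log2 scale. Hba-a1, Hbb-bs and Alas2 were still called without it. Within prep 1 alone, the 28-month change of Hbb-bs was 0.95, within prep 2 it was 0.38 and within prep 3 it was 1.75. For Alas2 the 3 values were 1.05, 0.41 and 1.22. The direction of both genes was the same in each prep, but edgeR called no member in any prep fitted alone, with 5 to 7 libraries at each of the 2 ages. Of all genes, 10.6% were called in prep 1, 1.96% in prep 2 and 6.36% in prep 3, so calls were fewer throughout. For Hba-a2, prep 2 alone had the opposite sign, at -0.29.

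The outlying brain also differed in the proportions within hemoglobin. Its Hba-a1 and Hba-a2 levels were 239 and 135 CPM and its Hbb-bs level was 328 CPM, each the highest of all 82 brains. Its Hbb-bt and Alas2 levels, 19.2 and 4.48 CPM, were not. The summed alpha genes stood at 1.08 times the summed beta genes there, while the median ratio over all brains was 0.486 and the lowest was 0.308. In liver libraries this ratio kept between 0.379 and 0.555, with a median of 0.476. Liver replicate 15 of 28 months, from the same mouse, had a ratio of 0.535 and globin levels near the bottom of its age, with Hbb-bs at 32.9 CPM. The imbalance was thus present in 1 of the 2 libraries of that mouse.

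Ratios between paralogs were not tested and are given as levels. Hbb-bt stood at a median of 0.153 reads per Hbb-bs read at 3 months in the brain and 0.135 at 28 months, and at 0.15 and 0.13 in the liver. Hba-a2 stood at 0.508 and 0.350 reads per Hba-a1 read in the brain, and at 0.319 and 0.328 in the liver. Both ratios of the brain were spread most widely at 28 months, from 0.0586 to 0.220 for the beta pair and from 0.104 to 0.720 for the alpha pair. With each pair summed to 1 feature, the brain change from 3 to 28 months was 1.16 for the alpha pair and 1.03 for the beta pair on the log2 scale, and both were called. Without replicate 15 of 28 months these were 0.68 (edgeR adjusted p = 0.0846, not called) and 0.78 (edgeR adjusted p = 0.0322).

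In the liver, Hba-a1, Hbb-bs and Hbb-bt were higher at 28 than at 3 months, while Alas2 was 3.63-fold lower. Hbb-bs ran from 44.1 to 102 CPM at 3 months, with a median of 68.6, and from 62.9 to 123 CPM at 9 months, with a median of 88.5. At 15 months it ran from 66.1 to 180 with a median of 93.8, at 24 months from 46.0 to 304 with a median of 104, and at 28 months from 29.2 to 230 with a median of 105. The young livers formed a narrow band, and the old ones lay both above and below it. The highest library was 2.31 times the lowest at 3 months, 1.95 times at 9 and 2.72 times at 15 months, against 6.61 times at 24 and 7.88 times at 28 months. The spread of log2 levels went the same way, with an SD of 0.36, 0.30, 0.43, 0.76 and 0.79. This difference in spread is a description and was not tested.

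From 3 to 28 months, liver Hbb-bs rose by 0.58 ± 0.18 on the log2 scale (edgeR adjusted p = 0.00475), Hba-a1 by 0.53 ± 0.18 (edgeR adjusted p = 0.00922) and Hbb-bt by 0.44 ± 0.20 (edgeR adjusted p = 0.0499). The Hbb-bt call was lost in 19 of 34 fits that each left out 1 library, and with RLE scaling, no filter, voom weights, only the 2 ages or a replicate block. Hba-a2 was at 0.45 ± 0.21 (edgeR adjusted p = 0.0594). Hba-a1 ran from 20.5 to 41.2 CPM at 3 months and from 11.5 to 85.7 CPM at 28 months, around medians of 27.9 and 45.3. Together with Alas2, 4 of 5 members were called, beside 61.9% of all liver genes, so a call was common in this tissue. At 24 months, Hba-a1, Hba-a2, Hbb-bs and Hbb-bt were higher than at 3 months by 0.74 ± 0.18, 0.85 ± 0.21, 0.77 ± 0.18 and 0.82 ± 0.20, with edgeR adjusted p between 0.000333 and 0.000656. All 5 members were called there, beside 49.0% of genes. With voom weights 3 were called at 24 months, and Hba-a1 and Hbb-bt, at 0.37 and 0.35, were not. Leaving out liver replicate 13 of 24 months, all 5 were still called, at 0.73 for Hba-a1, 0.86 for Hba-a2, 0.77 for Hbb-bs, 0.81 for Hbb-bt and -0.74 for Alas2, beside 47.3% of all genes.

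No member was called in the liver at 9 or 15 against 3 months, or at 15 against 9 months, where 4.69%, 7.32% and 0.0514% of genes were. At 15 against 3 months 4 members had an unadjusted p under 0.05 in edgeR, and in the other 2 comparisons none had. No globin was called at 24 against 15 or 28 against 24 months. With the 4 age terms together all 5 were called, beside 71.5% of genes. From 3 to 28 months, Hbb-bs changed by 0.80 within prep 1, 0.29 within prep 2 and 0.595 within prep 3, and edgeR called it in prep 1, where 39.9% of all genes were called, against 15.6% in prep 2 and 42.2% in prep 3. Whether the change differs between preps was not tested. The lowest globin levels of the 28-month livers came from replicate 17 (prep 2) and replicate 15 (prep 3).

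**Figure D2:**
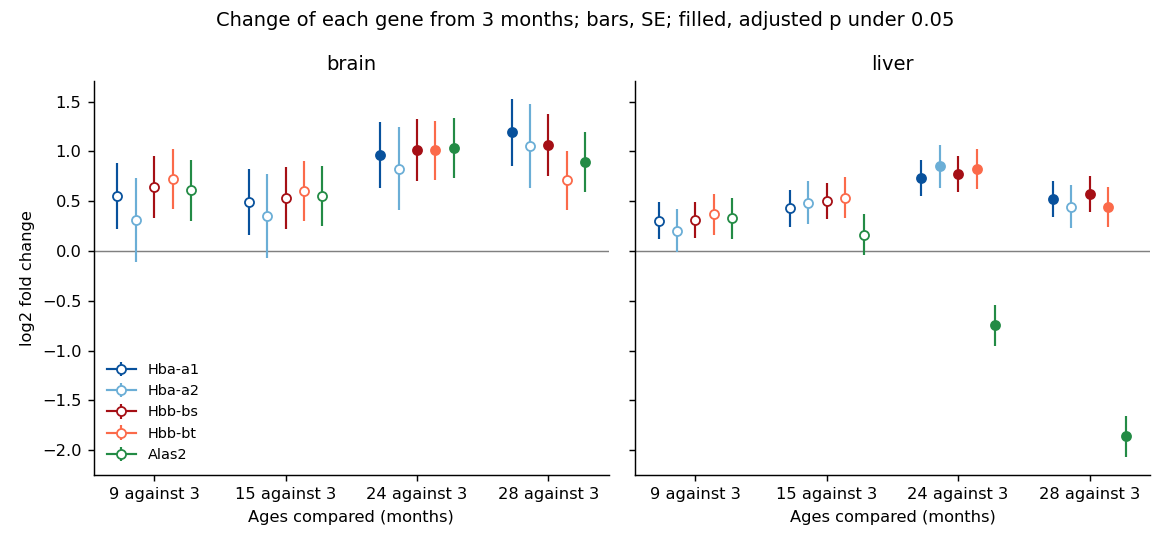
Log2 fold change of each gene against 3 months in brain and liver, with SE bars from the edgeR fit. Filled points have an adjusted p under 0.05. All 5 genes lie above 0 at every age in the brain, while in the liver Alas2 lies at -0.75 at 24 months and -1.86 at 28 months.

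Alas2 had the clearest age course in the liver. It ran from 48.0 to 130 CPM at 3 months with a median of 100 (mean 94.2 ± 25.9, SD, n = 16). It ran from 94.6 to 143 CPM at 9 months with a median of 117, and from 91.9 to 128 CPM at 15 months with a median of 106. At 24 months the range was 18.6 to 94.0 CPM with a median of 59.2, and at 28 months 4.22 to 102 CPM with a median of 20 (mean 26.2 ± 22.5, SD, n = 18). At 9 and 15 months the values formed a tight band, and only 1 of the 17 livers of 24 months reached the lower edge of the 15-month band. At 28 months replicate 10, at 102 CPM, stood alone, since the next highest library held 51.7 CPM.

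The fall of liver Alas2 came in 2 steps that both passed the test. Between 15 and 24 months it fell by 0.91 ± 0.21 on the log2 scale (edgeR adjusted p = 0.000361), beside 36.0% of genes called. Between 24 and 28 months it fell by 1.11 ± 0.20 (edgeR adjusted p = 4.62e-05), beside 15.3% of genes called. Without liver replicate 13 of 24 months these changes were -0.91 and -1.14, both called. The share of all genes called was then 31.1% between 15 and 24 months and 23.3% between 24 and 28 months. Against 3 months the change was -0.75 ± 0.21 at 24 months (edgeR adjusted p = 0.00175) and -1.86 ± 0.21 at 28 months (edgeR adjusted p = 3.6e-12), the latter a 3.63-fold lower level. The 28-month change was -2.10 within prep 1, -1.15 within prep 2 and -2.46 within prep 3. It was called in preps 1 and 3 and not in prep 2. Prep 2 holds both the highest 28-month liver, replicate 10 at 102 CPM, and the lowest, replicate 17 at 4.22 CPM. Why prep 2 differed was not tested. Exons of Apex2, a DNA repair nuclease, overlap Alas2 on the other strand, and Apex2 was at a median of 8.30 CPM at 3 months and 5.82 CPM at 28 months in the liver. Its highest level at 3 months, 10.8 CPM, was below every Alas2 value of that age, but at 28 months its range of 3.71 to 7.82 CPM took in the lowest Alas2 value. Its own change was -0.53 ± 0.09 (edgeR adjusted p = 2.98e-07). Whether strand was used in counting is not given in the sources used here, so reads of the 2 genes may not be told apart at such levels. This bears more on the brain, where Apex2 ran from 4.2 to 6.10 CPM at 3 months and from 0.574 to 6.47 CPM at 28 months. Its medians there, 4.91 and 4.57, were above the Alas2 medians of 2.17 and 3.76. The brain change of Apex2 was -0.18 ± 0.09 (edgeR adjusted p = 0.106), while that of Alas2 was 0.90.

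The 28-month change of Alas2 in the liver was 2.73 ± 0.36 log2 units below that in the brain, in a test of the tissue by age interaction over both tissues (edgeR adjusted p = 1.57e-10). No globin passed that test: the liver change minus the brain change was -0.62 ± 0.37 for Hba-a1, -0.56 ± 0.46 for Hba-a2, -0.45 ± 0.35 for Hbb-bs and -0.23 ± 0.36 for Hbb-bt, with edgeR adjusted p of 0.159, 0.321, 0.298 and 0.607. In this test 49.2% of the genes measured in both tissues were called. This fit does not use that 82 mice gave both tissues. With the mouse as a block the estimates were -0.33 for Hba-a1, 0.021 for Hba-a2, -0.27 for Hbb-bs, -0.29 for Hbb-bt and -2.91 for Alas2, and only Alas2 passed (edgeR adjusted p = 9.89e-10). Of all genes, 6322 of 14035 were called in that fit. Without the block and without brain replicate 15 of 28 months, the estimates were -0.21 for Hba-a1, -0.007 for Hba-a2, -0.20 for Hbb-bs, -0.17 for Hbb-bt and -2.73 for Alas2, again with a call for Alas2 alone. A p that misses the threshold does not show that the globins changed alike in the 2 tissues.

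Read against Hbb-bs in the same library, Alas2 stood at a similar median proportion at all ages in the brain and at a falling one from 15 months in the liver. The brain held a median of 5.35 Alas2 reads per 100 Hbb-bs reads at 3 months, 5.58 at 9, 5.51 at 15, 5.28 at 24 and 5.56 at 28 months. The liver held 131 at 3 months, 126 at 9, 116 at 15, 52.1 at 24 and 16.1 at 28 months. Even at its lowest, 8.77 in replicate 15 of 24 months, the liver proportion was above every brain, of which the highest held 8.35. Liver replicate 10 of 28 months held 151, within the range of 3 months. Such ratios need no scaling between libraries.

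**Figure D3:**
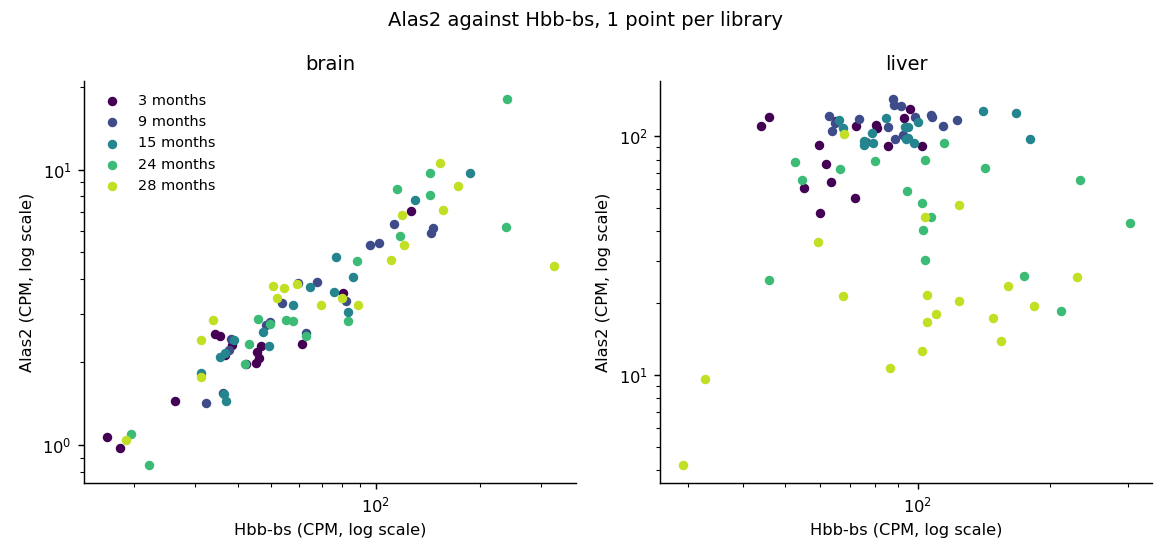
Alas2 against Hbb-bs (both CPM, log scales), 1 point per library, coloured by age, in brain and liver. Brain points follow a line at all ages, with replicate 15 of 28 months and replicate 13 of 24 months toward the right end below it. Most liver points of 24 and 28 months lie lower in Alas2 than those of younger mice, over the whole range of Hbb-bs.

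Across libraries of 1 tissue, with the means of age and prep removed, all members followed each other in the brain. Pearson's r between log2 levels lay between 0.79 (Hba-a2 with Alas2) and 0.99 (Hba-a1 with Hbb-bs) over 82 brains for all 10 pairs, and Spearman's rho between 0.86 and 0.98. Each of the 10 had a permutation p of 1e-05, the smallest that 100000 permutations within age can give, and an adjusted p of 1.25e-05 over the 20 pairs tested in both tissues. Alas2 and Hbb-bs had an r of 0.91 (rho 0.94), and 0.94, 0.93 and 0.87 within preps 1, 2 and 3. Without the 2 libraries farthest from the median it was 0.94.

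In the liver, the 6 globin pairs had r between 0.88 and 0.98 over 83 libraries (rho 0.85 to 0.97, permutation p of 1e-05 each, adjusted p = 1.25e-05). Over all livers, Alas2 did not follow them. Its r was 0.15 with Hba-a1, 0.11 with Hba-a2, 0.15 with Hbb-bs and 0.22 with Hbb-bt, with adjusted permutation p of 0.287, 0.404, 0.287 and 0.136. Spearman's rho was between -0.01 and 0.10 for these 4 pairs. Without the 2 libraries farthest from the median, r of Alas2 with Hbb-bs was -0.07. Within preps 1, 2 and 3 it was -0.12, 0.33 and 0.15, and r of Alas2 with Hbb-bt was -0.02, 0.41 and 0.19. The values of prep 2 were thus the highest, and whether the preps differ was not tested. In the brain the 5 genes thus varied as 1 group, while in the liver the globins did so and Alas2, by this measure, did not go with its label as a red cell gene.

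Globin levels in the brain and liver of the same mouse were related for 3 of the 4 globins. Over 82 mice, with age and prep means removed, r between brain and liver was 0.51 for Hbb-bt (rho 0.40, permutation p = 2e-05, adjusted p = 0.0001 over the 5 genes) and 0.35 for Hbb-bs (rho 0.32, permutation p = 0.00513, adjusted p = 0.0128). It was 0.29 for Hba-a1 (rho 0.31, permutation p = 0.0198, adjusted p = 0.0330) and 0.21 for Hba-a2 (rho 0.30, permutation p = 0.0936, adjusted p = 0.117; for rho the adjusted p was 0.0123). For Alas2 it was -0.02 (rho -0.13, permutation p = 0.845). Leaving out the 2 mice farthest from the median gave 0.38 for Hbb-bt, 0.45 for Hbb-bs, 0.40 for Hba-a1 and Hba-a2, and -0.21 for Alas2.

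The relation was of one sign within preps, with r for Hbb-bs of 0.27, 0.47 and 0.29 and for Hbb-bt of 0.37, 0.60 and 0.53 in preps 1, 2 and 3. Within ages it was uneven. For Hbb-bs, r was 0.04 over 15 mice of 3 months, 0.10 over 16 of 9 months, 0.40 over 16 of 15 months, 0.68 over 17 of 24 months and 0.17 over 18 of 28 months. Single animals went both ways. Ranked by Hbb-bs among 82 mice, the mouse numbered 10 of 24 months ranked 2nd for both tissues, and the mouse numbered 9 of 28 months was 5th by brain and 3rd by liver. The mouse numbered 17 of 28 months was 80th by brain and 82nd by liver. Against this, the mouse numbered 15 of 28 months was 1st by brain and 81st by liver, the mouse numbered 16 of 28 months 75th and 14th, and the mouse numbered 5 of 3 months 13th and 66th.

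**Figure D4:**
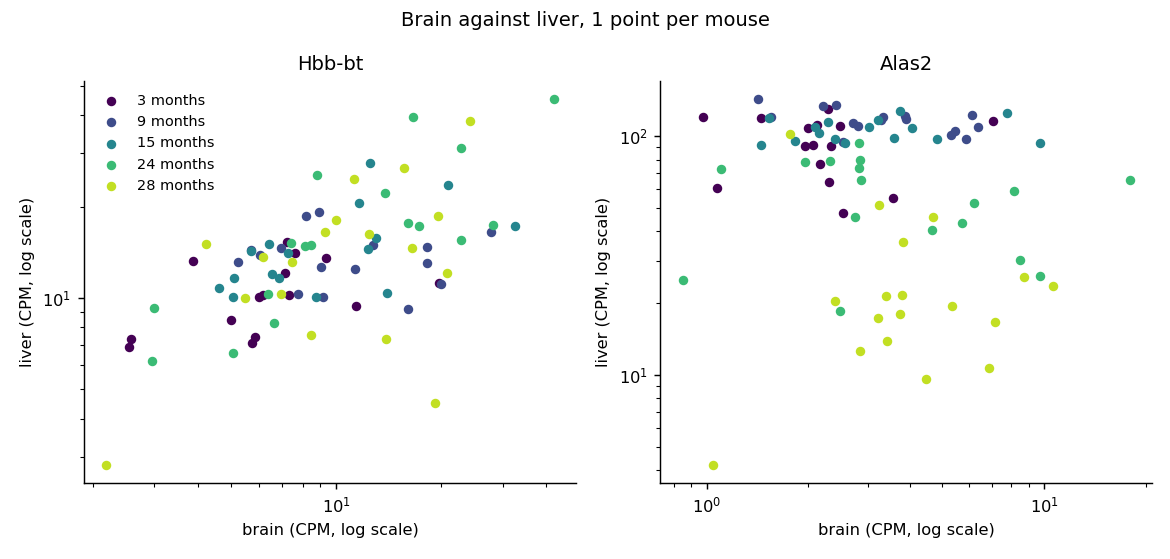
Brain level against liver level (CPM, log scales) of Hbb-bt and Alas2, 1 point per mouse, coloured by age. Hbb-bt rises together in the 2 tissues (r = 0.51 after removing age and prep means), while Alas2 forms no line (r = -0.02).

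Other genes of red cells were scarce. Of a list of 21 red cell membrane proteins and regulators, 20 were matched to a row, and 5 passed the filter in the brain and 7 in the liver. Slc4a1, the anion exchanger of the red cell membrane, was at 0.203 ± 0.114 CPM in 3-month brains (SD, n = 15) and 0.496 ± 0.504 at 28 months (SD, n = 18), and rose by 1.24 ± 0.33 log2 units (edgeR adjusted p = 0.00302). In the liver Slc4a1 did not pass the filter, with a mean of 0.406 CPM over all libraries. Gata1, a master regulator of red cell precursors, was at a mean of 0.0330 CPM in the liver and 0.00826 CPM in the brain, near 0 in both tissues. Without brain replicate 15 of 28 months, the Slc4a1 change was 1.24 and still called.

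Of the 5 list members tested in the brain, 2 rose, 1 fell and 2 did not pass between 3 and 28 months, around a median of 0.34 against 0.01 for all genes, of which 28.3% were called. The counts were also 2 and 1, around 0.23, without brain replicate 15 of 28 months. Epor, the erythropoietin receptor, was at -0.13 ± 0.09 (edgeR adjusted p = 0.290), and Tal1, a regulator shared with endothelium, fell by 0.21 ± 0.08 (edgeR adjusted p = 0.0426). In the liver 3 rose, 1 fell and 3 did not pass, around a median of 0.15, where 61.9% of all genes were called, so this count was near the background. Klf1, a regulator of globin genes, rose by 1.12 ± 0.17 (edgeR adjusted p = 2.42e-08) and Nfe2, a factor of red cells and platelets, by 1.66 ± 0.28 (edgeR adjusted p = 4.16e-07). Icam4, a red cell adhesion protein, fell by 1.18 ± 0.28 (edgeR adjusted p = 0.000194).

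Most heme synthesis genes other than Alas2 were lower in old livers. All 10 listed genes were tested, and 8 fell, none rose and 2 did not pass, around a median of -0.32 against 0.01 for all genes, of which 61.9% were called in either direction. Fech, which inserts iron into heme, fell by 0.14 ± 0.06 (edgeR adjusted p = 0.0293) and Alad, the second enzyme of the pathway, by 0.31 ± 0.06 (edgeR adjusted p = 3.12e-05). Alas1, the general counterpart of Alas2, was at 312 ± 340 CPM at 3 months and 237 ± 155 CPM at 28 months, with a change of -0.46 ± 0.35 (edgeR adjusted p = 0.242). The fall of Alas2 was thus larger than that of each gene named here. In the brain 2 of the 10 rose, 1 fell and 7 did not pass, around a median of 0.07, a share near the 28.3% of all brain genes called, with Fech at 0.08 ± 0.03 (edgeR adjusted p = 0.0184) and Alas1 at 0.06 ± 0.03 (edgeR adjusted p = 0.198). Without brain replicate 15 of 28 months 1 rose and 1 fell, and Alad, called with it at 0.39, was at 0.06 and not called.

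The embryonic globins were at or near 0. Among 9 other globin genes, Hbb-bh2 had no count in any library of either tissue, and Hba-x, Hbb-y and Hbb-bh1 were at a mean of at most 0.0214 CPM. Cygb, cytoglobin, is made by fibroblast-like cells and not by red cells, and in the liver it rose from 7.68 ± 1.10 CPM at 3 months to 18.0 ± 2.65 at 28 months (log2 change 1.22 ± 0.09, edgeR adjusted p = 3.75e-19). In the brain, none of the 4 other globins that passed the filter was called, with all libraries or without replicate 15 of 28 months, and Cygb was at 0.10 ± 0.06 (edgeR adjusted p = 0.210).

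Genes for proteins that bind or clear hemoglobin, heme and iron were followed as a further list. In the brain 8 of 13 tested rose and none fell, around a median of 0.35, and in the liver 10 of 16 rose and 2 fell, around a median of 0.34. Of all genes, 28.3% and 61.9% were called. Hp (haptoglobin, which captures free hemoglobin) rose in the liver by 1.15 ± 0.24 (edgeR adjusted p = 3.67e-05), and Hpx (hemopexin, which captures heme) by 1.21 ± 0.19 (edgeR adjusted p = 8.51e-08). Hmox1, heme oxygenase, rose there from 29.3 ± 8.50 to 98.5 ± 65.5 CPM (log2 change 1.71 ± 0.22, edgeR adjusted p = 2.51e-10). In the brain Hp rose by 2.16 ± 0.32 (edgeR adjusted p = 1.52e-07) from a mean of 0.138 CPM, and Fth1, the ferritin heavy chain, by 0.70 ± 0.17 (edgeR adjusted p = 0.000803). Without brain replicate 15 of 28 months, 7 of the 13 rose around a median of 0.27, and the changes were 2.08 for Hp and 0.34 for Fth1, both called. Haptoglobin and hemopexin are also proteins of the acute phase response.

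Other blood cells were measured by their own markers, and their part in the globin result was not tested. Of all genes tested, 28.3% of those of brain and 61.9% of those of liver were called between 3 and 28 months. In the brain, 7 of 8 tested neutrophil genes rose between 3 and 28 months and none fell, around a median of 2.70, and their summed level ran from 2.61 to 7.84 CPM at 3 months and from 4.71 to 48.1 CPM at 28 months. S100a9 rose there by 3.01 ± 0.39 (edgeR adjusted p = 2.81e-09). In the liver all 12 tested neutrophil genes rose, around a median of 3.70, with sums of 2.97 to 29.7 CPM and 13.7 to 867 CPM. In the brain 7 of 8 still rose without replicate 15 of 28 months, around a median of 2.66. Lymphocyte genes rose in the liver in 12 of 12 tested, around a median of 2.43, with sums of 6.46 to 42.7 and 15.9 to 375 CPM, and 1 of 4 rose in the brain, a share near the background, with or without replicate 15 of 28 months. None of 5 platelet genes was called in the brain (median 0.02), with sums of 2.83 to 5.39 and 2.98 to 15.7 CPM, and all 5 tested rose in the liver (median 1.74), with sums of 3.54 to 6.09 and 5.30 to 48.2 CPM. Leaving out brain replicate 15 of 28 months, 1 platelet gene, Gp9, fell by 0.56 (edgeR adjusted p = 0.0286), and the median was -0.06. Among the listed neutrophil genes, Ly6g and Cxcr2 did not pass the filter in the brain, with means of 0.0176 and 0.0926 CPM.

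With the Hbb-bs level of each library added to the model as a covariate, the median neutrophil change over the same genes was 2.17 for brain and 3.02 for liver, and 7 of 8 and 12 of 12 were called as before. The platelet median in the liver was then 1.16, and all 5 were still called. Some brain lists lost calls with the covariate. The hemoglobin, heme and iron list had 4 of 13 called in place of 8 (median 0.20 in place of 0.35). The lymphocyte list had 0 of 4 in place of 1, and the red cell membrane and regulator list 2 of 5 in place of 3. Heme synthesis genes had 2 of 10 in place of 3, and endothelial genes 5 of 10 in place of 7. Other brain lists gained calls, all of them lower: platelets 1 of 5 in place of 0, meninges 4 of 8 in place of 3, and choroid plexus 3 of 8 in place of 0. Calls over all genes fell as well. Of 18711 genes, 3802 were called in the brain at 28 against 3 months with that covariate and 5291 without it, 3376 of them shared. In the liver the numbers were 9127 and 9639, with 8859 shared. For Alas2 the 28-month change was 0.10 in the brain with the covariate, where edgeR did not call it, and -1.87 in the liver, where it did. The covariate is itself one of the 5 genes and rises with age, so it also takes up part of any change that moves with it.

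Genes of tissue that dissection can add were looked at beside the brain globins, without a test of their part. The background for calls between 3 and 28 months was again 28.3% of brain genes. The 8 choroid plexus genes had a median rho with Hbb-bs of 0.36 over 82 brains and the 8 meningeal genes 0.24, while the 6 neuronal genes had -0.21 and all other genes tested a median of 0. Neutrophil genes stood at 0.40, platelet genes at 0.27 and endothelial genes at 0.07. In the liver, platelet genes had a median rho of 0.29 with Hbb-bs, neutrophil genes 0.23 and lymphocyte genes 0.02. The summed choroid plexus level ran from 50.6 to 6540 CPM in 3-month brains and from 48.5 to 5380 CPM in 28-month brains, and none of its 8 genes was called between these ages. With Hbb-bs as a covariate 3 of the 8 were called lower. Both pituitary genes tested, Gh and Pomc, were called lower at 28 months, but the summed list had like medians, 1.1 CPM at 3 months (0.736 to 564) and 1.14 CPM at 28 months (0.559 to 9.99). These calls rested on few 3-month brains: 2 of 15 were above every 28-month brain for Gh and 1 of 15 for Pomc. Leaving out replicate 5 of 3 months, the highest for both, Gh was at -4.17 (edgeR adjusted p = 0.0337) and Pomc at 0.06 (edgeR adjusted p = 0.939, not called). Of the 8 meningeal genes 3 fell (Col1a1, Col1a2 and Lum), with sums of 211 to 892 and 235 to 2390 CPM, and this share was near the background. The same genes of both lists were called lower without brain replicate 15 of 28 months. The summed endothelial level was 181 to 291 CPM at 3 months and 144 to 282 CPM at 28 months in the brain, with 3 of 10 genes higher and 4 lower. These counts, and the 0 of the choroid plexus, were the same in number without that library. Of the 6 neuronal genes 1 was lower with all libraries (Tubb3, a neuronal tubulin) and 1 higher without that library (Gad1, which makes the transmitter GABA).

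**Figure D5:**
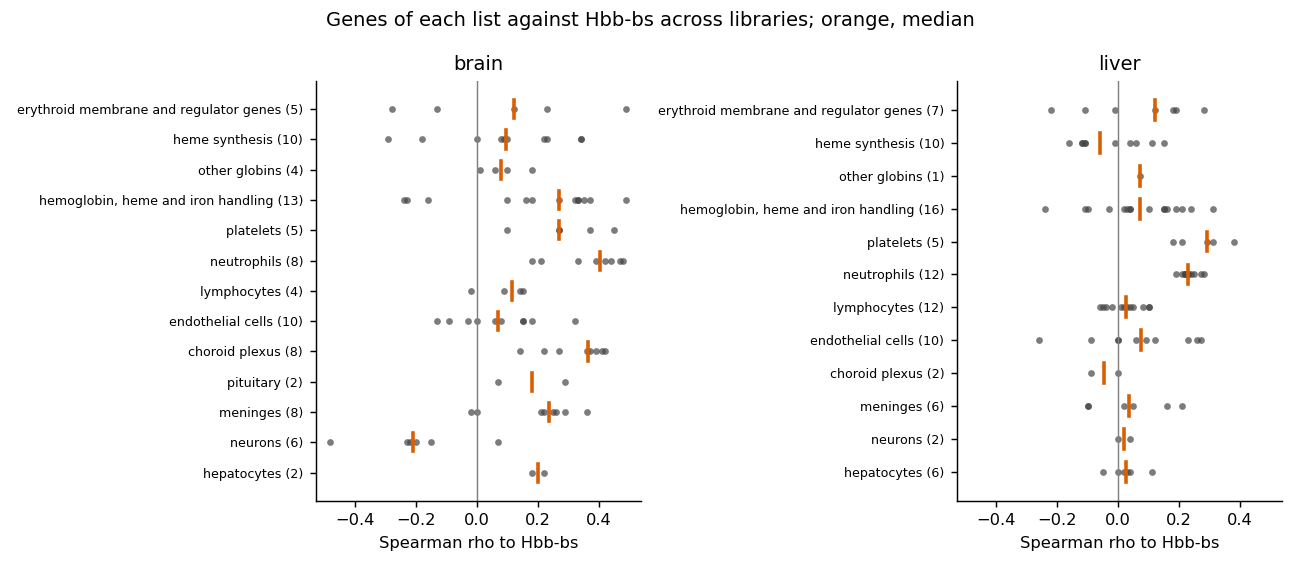
Spearman rho of each gene with Hbb-bs across libraries (age and prep means removed), by marker list, in brain and liver. Dots are genes, orange bars list medians and numbers in brackets the genes tested. In the brain neutrophil genes have a median of 0.40 and neuronal genes of -0.21. In the liver platelet genes have the highest median, 0.29.

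The genes most like Hbb-bs across 82 brains, other than the members, were Ucp2 (rho 0.67), Clic1 (0.65), Tspo (0.64), Ube2l6 (0.62) and Ccnd3 (0.61). In all, 78 of 18706 other genes had a rho over 0.5 in the brain. Across 83 livers, genes with a high likeness included Bpgm (0.50), Gnai2 (0.46), Gpx4-ps2 (0.45) and AC138228.2 (0.44). Bpgm makes the 2,3-bisphosphoglycerate of red cells. These values describe likeness over libraries that share their depth and preps.

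For liver Alas2 the most similar genes, looked up after its course had been seen, were Fitm1 (rho 0.82), Slc22a28 (0.82), Abcg2 (0.78), Ociad2 (0.78) and Mup21 (0.77), and 212 of 15574 genes had a rho over 0.5. None of these 5 is a gene of the red cell lists. Among the red cell membrane and regulator genes the highest rho with liver Alas2 was 0.49, for Car1, a carbonic anhydrase of red cells and gut. The most opposite gene was C3, a complement protein made by the liver, at -0.73. In the brain, where Alas2 followed the globins, Ucp2 was likest to it (0.63), and Slc4a1 stood at 0.51.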

How the data were processed

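Counts per gene were deposited by the authors as 1 raw count table per tissue, 82 brain and 83 liver libraries. Per the submitters' processing notes, the tools were cutadapt 2.8, HISAT2 2.1.0, SAMtools 1.9 and featureCounts of Subread 2.0.1, and the builds GRCm38.p6 and mm10; whether strand was used and how shared reads were counted is not given in the sources used here. No column of another series was present (0 left out). Genes were filtered by filterByExpr on age and scaled by TMM in edgeR 4.0.16 (limma 3.58.1, R 4.3.3). Age with prep as a covariate was fitted to all libraries of a tissue with the quasi-likelihood test, and p-values were Benjamini-Hochberg adjusted over all genes of each comparison, with a call under 0.05. SE is the absolute log2 fold change over the square root of F. Correlations used log2 CPM with a prior count of 2, age and prep means removed, and 100000 two-sided permutations within age. The count test was tested on simulated data. Alternatives included DESeq2 1.42.0, voom weights, other scaling, no filter, each prep alone and each library left out. Within a list, up to 3 genes were named, called changes of at least 2 fold first and then the highest mean level, and 5 genes most like a member; Gata1, Cygb, Alad in the brain, Car1, Ly6g, Cxcr2, Gp9, Gh, Pomc, Col1a1, Col1a2, Lum, Tubb3 and Gad1 were named after their values were seen. Some genes these rules select are not reported here. The members and lists were chosen with earlier results of these data known. Brain and liver of a mouse are paired by the labels' mouse number. Equal replicate numbers at different ages do not mark a shared animal.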

Additional observations from a re-analysis of the deposited data

Results flagged for a closer look

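The change of Alas2 from 3 to 28 months differed between the tissues, which was tested as an interaction of tissue and age. The liver change minus the brain change was -2.726 on the log2 scale (SE 0.36, edgeR adjusted p = 1.57e-10), with a mean of 142 CPM at 3 months and 40.3 CPM at 28 months in the liver and of 2.38 and 4.39 CPM in the brain, on the scale of the joint fit. With the mouse as a block it was -2.91.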

How the results depend on the processing

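Of 1100 alternative values, 906 were counted as unchanged. For fold changes and the interaction this meant the same direction and the same side of the threshold. Correlations were judged by an interval around the main r and not by their call. Counts and list medians were judged by the size of their move, so these may differ somewhat and still be counted as unchanged. For the members, settings that changed a call, a sign or a count follow as log2 fold changes. With prep 1 alone, the brain values at 24 against 3 months were 0.43 for Hba-a1, 0.56 for Hbb-bs, 0.60 for Hbb-bt and 0.60 for Alas2, and at 28 against 3 months 0.89 for Hba-a1, 0.95 for Hbb-bs and 1.05 for Alas2. In the liver, prep 1 gave -0.85 for Alas2 at 24 against 3 months, 0.65 for Hba-a2 at 28 against 3 and -1.04 for Alas2 at 24 against 15 months. With prep 2 alone, the brain values were 1.10 for Hba-a1, 1.00 for Hbb-bs, 0.84 for Hbb-bt and 0.77 for Alas2 at 24 against 3, and 0.29 for Hba-a1, -0.29 for Hba-a2, 0.38 for Hbb-bs and 0.41 for Alas2 at 28 against 3 months. The liver values of prep 2 were 0.35 for Hba-a1, 0.49 for Hba-a2, 0.41 for Hbb-bs, 0.46 for Hbb-bt and -0.74 for Alas2 at 24 against 3, and 0.14 for Hba-a1, 0.29 for Hbb-bs, 0.048 for Hbb-bt and -1.15 for Alas2 at 28 against 3 months. Alas2 in prep 2 was at -0.86 at 24 against 15 and -0.41 at 28 against 24 months. With prep 3 alone, the brain values were 1.32 for Hba-a1, 1.46 for Hbb-bs, 1.52 for Hbb-bt and 1.67 for Alas2 at 24 against 3, and 2.14 for Hba-a1, 1.75 for Hbb-bs and 1.22 for Alas2 at 28 against 3 months. In the liver they were 0.86 for Hba-a1, 0.90 for Hbb-bs and -0.69 for Alas2 at 24 against 3, and 0.58 for Hba-a1, 0.595 for Hbb-bs and 0.48 for Hbb-bt at 28 against 3 months. Each prep holds fewer libraries than the whole. Members called in preps 1, 2 and 3 numbered 0, 0 and 0 in the brain at 24 against 3, at 28 against 3 and for all ages together. The share of all brain genes called in these preps was 1.19%, 0.597% and 0.486% at 24 against 3, 10.6%, 1.96% and 6.36% at 28 against 3 months, and 4.84%, 1.42% and 1.99% for all ages. In the liver prep 2 called 0 members and prep 3 called 2 at 24 against 3, with 0 and 1 at 28 against 3 months. Preps 1 and 2 called 0 at 24 against 15, prep 2 called 0 at 28 against 24, and preps 2 and 3 called 1 each for all ages. Of all liver genes, 15.5% (prep 2) and 33.4% (prep 3) were called at 24 against 3, 15.6% and 42.2% at 28 against 3, 28.4% and 40.5% for all ages, 0.0193% (prep 1) and 16.7% (prep 2) at 24 against 15, and 0% (prep 2) at 28 against 24 months.

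With Hbb-bs as a covariate, chosen for the members after the data were seen, brain values were -0.056 for Hba-a1, -0.50 for Hba-a2, 0.001 for Hbb-bt and 0.028 for Alas2 at 24 against 3, and 0.019, -0.55, -0.13 and 0.098 at 28 against 3 months. In the liver they were -0.018 for Hba-a1, 0.056 for Hba-a2 and -0.022 for Hbb-bt at 24, and -0.029, -0.14 and -0.19 at 28 months. Of these, brain Hba-a2 passed the test as lower at 24 (edgeR adjusted p = 0.0264) and at 28 months (0.00543), and so did liver Hbb-bt at 28 months (0.00892). Brain list medians that changed sign were -0.049 for platelets, -0.004 for other globins and 0.057 for neurons, and called genes went from 8 to 4 in the hemoglobin, heme and iron list, 1 to 0 in lymphocytes, 0 to 1 in platelets and 0 to 3 in choroid plexus. RLE size factors gave 0.96 for brain Hba-a1 at 24, 1.07 for brain Hba-a2 at 28 and 0.44 for liver Hbb-bt at 28 months. Without the filter, brain Hba-a1 at 24 months was 0.95 and liver Hbb-bt at 28 months 0.41, and 0 members were called over all brain ages. DESeq2 gave 1.12 for Hba-a2 and 0.73 for Hbb-bt in the brain and 0.45 for liver Hba-a2 at 28 months, and called 5 members in the brain. Voom weights gave 0.37 for Hba-a1 and 0.35 for Hbb-bt at 24 months and 0.27 for Hbb-bt at 28 months in the liver, with 3 called at 24 months. Summing each near-identical pair gave 0.92 for the alpha pair at 24 months and 1.16 and 1.03 for the pairs at 28 months in the brain, and 0.51 for the liver alpha pair at 28 months. Without the prep term liver Hba-a2 was 0.50 at 28 months and 1 member was called over all brain ages. With only the compared ages fitted, liver Hbb-bt was 0.44 at 28 months and 2 members were called in the liver at 15 against 3 months. In prep 2 alone, r between tissues for Hba-a1 was 0.48. The cause of these differences was not tested. For DESeq2, voom weights, no filter, no prep term and only the compared ages, the share of all genes called is not reported here. The counts of members called under these settings can therefore not be set against it.

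With the replicate number as a block, Hbb-bt at 28 months was 0.80 in the brain, now called, and 0.41 in the liver, no longer called; the median correlation of same-numbered libraries was 0.026 for brain and 0.006 for liver, so they share only a number. With the mouse as a replicate block, the interaction was 0.021 for Hba-a2, with a changed sign, and -2.91 for Alas2, with no changed call. Leaving out single libraries at 28 against 3 months gave, in the brain, 0.77 to 1.38 for Hba-a1, 0.49 to 1.24 for Hba-a2, 0.81 to 1.25 for Hbb-bs, 0.64 to 0.90 for Hbb-bt and 0.76 to 1.09 for Alas2. In the liver it gave 0.47 to 0.59 for Hba-a1, 0.40 to 0.52 for Hba-a2, 0.52 to 0.64 for Hbb-bs, 0.35 to 0.52 for Hbb-bt and -2.11 to -1.79 for Alas2. Members called ranged from 3 to 5 in both tissues, and the share of all genes called in each such fit is not reported here. For 24 against 3 months in the brain, leaving out replicate 13 of 24 months or 15 of 28 months gave 0.79 to 1.00 for Hba-a1, 0.61 to 0.90 for Hba-a2, 0.87 to 1.04 for Hbb-bs, 0.92 to 1.02 for Hbb-bt and 1.02 to 1.04 for Alas2, with 2 to 4 members called. Of all genes, 1704 of 18701 were called in that comparison without replicate 13 of 24 months. Without brain replicate 15 of 28 months the median of the platelet list turned to -0.063 and that of the neuron list to 0.03, and the alpha pair summed at 24 against 3 months was 0.967 and called. Without brain replicate 5 of 3 months Pomc turned to 0.061. Without liver replicate 13 of 24 months no member call changed in the 3 comparisons with that age. Liver Hbb-bt lost its call in 19 of 34 such fits. Hba-a2 gained one in 14 of 33 in the brain and 9 of 34 in the liver, and brain Hbb-bt in 5 of 33.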
